A study of Mus musculus with 67 samples.

Results

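Mouse small intestinal organoids grown in the 8C condition (Hyper-organoids) were compared with organoids grown in the conventional ENR condition by bulk RNA-seq. The comparison took the 7 libraries whose labels give the full 8C medium and the 7 libraries whose labels give the ENR medium, so that 14 of the 67 libraries of the series entered it, and both groups carry replicate numbers 1 to 7. All organoids were started from crypts of the proximal small intestine of mice aged 6 to 12 weeks and were passaged every 7 days in Matrigel. The 8C medium held 500 µM VPA, which inhibits histone deacetylases, 2 µM EPZ6438, which inhibits the histone methyltransferase EZH2, 0.2 µM LDN193189, an inhibitor of BMP receptors, 0.1 µM GSK3iXV, an inhibitor of the kinase GSK3, 1 µM Pexmetinib, an inhibitor of the kinases p38 and Tie2, R-Spondin 1 as 10% conditioned medium, and the growth factors bFGF at 20 ng/mL and EGF at 50 ng/mL. Organoids in ENR received EGF at 50 ng/mL, noggin, a protein that binds BMP ligands, at 100 ng/mL, and 500 ng/mL recombinant R-Spondin 1. The base medium was shared and EGF was at the same dose in both, while R-Spondin 1 differed in form and all other added factors differed. The study also split Hyper-organoids at a higher ratio and recommends knockout serum replacement after their passage. Whether these libraries received the serum replacement is not stated. The values below therefore compare whole culture conditions and not single compounds. Another group of 7 libraries, from the 8C medium without VPA and EPZ6438, is given beside the named genes near the end. The strain, sex and parent animal of each organoid library are not in the labels used here, and the study's captions for such profiles count fewer mice than there are libraries here. Libraries may therefore share a mouse, so the p-values below measure the spread between these libraries.

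The small intestinal epithelium is renewed from Lgr5+ stem cells at the crypt base, which lie between Paneth cells, the makers of lysozyme and alpha-defensins. Their daughters divide as transit amplifying cells and become absorptive enterocytes or secretory cells, the goblet, enteroendocrine and tuft cells. After injury, crypts enlarge, and cells that express Clu, Ly6a (the antigen SCA1) and Anxa1 appear, which have been described as revival or fetal-like stem cells and in which YAP, a co-activator of TEAD transcription factors, is active. Epithelium under repair is also known for the lectins Reg3b and Reg3g, which bind bacteria. Histone deacetylases and EZH2, the catalytic subunit of PRC2, both act to keep genes silent, the former by removing acetyl groups from histones and the latter by methylating histone H3.

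Values are in TPM, which scales reads to gene length and library total, and differences are log2 fold changes of 8C over ENR on the scale of log2(TPM + 1), with the standard error (SE) of a limma fit in which the replicate number was a block. Calls required both a change of at least 2-fold and a p under 0.05 after Benjamini-Hochberg adjustment over all genes tested. A gene's level is given by its lowest and highest library with the median of the 7, or by the median with the range in parentheses. Adding 1 TPM understates the changes of weakly expressed genes. Of the 12665 genes whose mean reached 1 TPM, 1515 were called higher in 8C, which is 12% of the genes tested, and 413 were called lower, which is 3.26%. These shares are the background for each gene list below, and the median over all genes tested was 0.078. For 1472 of the 1928 called genes, 11.6% of those tested, every 8C library lay on the same side of every ENR library. Many of the genes that rose had been weak in ENR: 655 of the 1515, or 43.2%, had an ENR mean under 1 TPM, and 24 were listed at 0 in all 7 ENR libraries. Of the 413 that fell, 108, or 26.2%, had an 8C mean under 1 TPM. A gene with an ENR mean under 1 TPM was tested only if 8C raised the overall mean to 1 TPM, so its mean had to be higher in 8C. Among the 11810 genes with an ENR mean of at least 1 TPM, 860 were called higher, or 7.28%, and this share is the background for list members that pass the minimum in ENR alone. Likewise, a gene with an 8C mean under 1 TPM had to be lower in 8C, and of the 12465 genes with an 8C mean of at least 1 TPM, 305, or 2.45%, were called lower. The 8C libraries held 12361 to 13158 genes at 1 TPM or more and the ENR libraries 11657 to 12116. Quantile normalization moved the median of all genes by -0.14 on the log2 scale and turned the split into 1121 higher and 603 lower, so that 65% of called genes were higher in place of 78.6%.

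The libraries differed within each condition by their replicate number. Fits were therefore also made on numbers 1 to 3, called the first set, and on numbers 4 to 6, the second set. Their log2 fold changes are given for each of the 24 named genes where they differ by over 2, or by over 1 with a turned sign, and for some further genes. Sex-linked genes also went with the number. Numbers 2, 4 and 5 held Xist without genes of chromosome Y above 1 TPM, numbers 3, 6 and 7 held the chromosome Y genes without Xist, and number 1 held both, in 8C and ENR alike. Of the 1515 genes called higher, 1096 were called higher within both sets of numbers, and 2 had the opposite sign in one of them. Of the 413 called lower, 249 were called lower within both, and 0 had the opposite sign. The ENR library numbered 7 stood apart in 24 of the genes named below by Dixon's test, which are listed in the closing section. Clu at 40.6 TPM and Anxa1 at 27.6 TPM were highest there among ENR libraries as well, but not past the limit of that test. Mitochondrially encoded genes held 4.69% of TPM in that library, against 1.84 to 3.81% in the other ENR libraries, and 6.31% in 8C library 7, against 1.64 to 2.58%. Without replicate number 7, 1524 genes were called higher and 447 lower. Of 109 genes named below and called, 11 lost the call when at least one of the 7 numbers was left out, most of them with a change close to 2-fold (Alpi, Cd44, Cldn2, Dll1, Epop, Id1, Ppara, Rnf43, Tac1, Trpm5 and Vim).

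Both groups carried the keratins of simple epithelium at high levels. Krt8 ranged from 2644 to 5389.6 TPM (median 3789) in 8C and from 3026 to 5199.5 TPM (median 3742) in ENR. Markers of other cell types were low or absent. Of 12 mesenchymal markers only Vim, the intermediate filament vimentin, reached the mean of 1 TPM, and it was higher in 8C, at 16.9 to 27.2 TPM (median 24.1) against 5.38 to 13 TPM (median 10.8) (log2 fold change 1.01, SE 0.18, adjusted p = 0.00158), which fell short of 2-fold with quantile normalization (0.84). The summed level of the list was 20.6 to 30.1 TPM in 8C and 5.86 to 14.7 TPM in ENR, most of it Vim, while the fibroblast collagen Col3a1 did not pass 0.103 TPM in any library. Col1a1 reached 2.23 TPM in 8C and 0.0966 TPM in ENR, and the muscle protein Des, named after its values were seen, 3.56 and 0.105 TPM. None of 7 endothelial markers reached the minimum, and their sum was at most 1.47 TPM in 8C and 1.23 TPM in ENR, with Cdh5 and Kdr listed at 0 in all 14 libraries. Of 15 immune markers Cd68, a lysosomal protein that epithelium also holds, was the only one tested, and it was not called (0.58, SE 0.28, adjusted p = 0.129). The summed list was at 2.43 to 17.5 TPM in 8C and 4.19 to 9.31 TPM in ENR. Ptprc, which marks leukocytes, stayed at or under 0.0825 TPM, and Cd3d, Cd4 and Cd8a were listed at 0 throughout. Of 12 markers of enteric neurons and glia 4 were tested, and Uchl1, Ret and Snap25 were called higher, with the summed list at 22.6 to 38.3 TPM in 8C and 5.11 to 8.34 TPM in ENR. Of these, Uchl1 and Snap25 passed the minimum only through 8C, and of the other 2 tested, 1 was called higher. Sox10, the defining factor of enteric glia, was listed at 0 in all libraries. The part of other cells in the results below was not tested. In bulk RNA, fewer cells of a type and less RNA per cell cannot be told apart, which holds for every cell type list below.

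The largest rise was that of Bex4, a small protein-coding gene of a family on chromosome X named for brain expression, and genes near it rose with it. The promoters of the leading members are printed here because they show how alike the copies are. They are RefSeq sequences of build GRCm38.p6, from 250 bases before to 50 bases after the annotated start, 5′ to 3′ on the strand of the gene, with each CG dinucleotide, the site of DNA methylation, in capitals. Bex4 lies on the plus strand at chrX:136138746-136139045, Bex1 on the minus strand at chrX:136215464-136215763 and Arxes2 on the plus strand at chrX:135993570-135993869.
Bex4: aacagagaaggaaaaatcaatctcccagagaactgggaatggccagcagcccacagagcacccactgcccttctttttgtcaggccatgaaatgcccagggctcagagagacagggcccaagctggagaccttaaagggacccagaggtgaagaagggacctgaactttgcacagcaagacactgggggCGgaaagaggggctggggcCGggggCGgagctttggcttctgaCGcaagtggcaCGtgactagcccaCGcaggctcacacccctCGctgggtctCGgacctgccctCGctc
Bex1: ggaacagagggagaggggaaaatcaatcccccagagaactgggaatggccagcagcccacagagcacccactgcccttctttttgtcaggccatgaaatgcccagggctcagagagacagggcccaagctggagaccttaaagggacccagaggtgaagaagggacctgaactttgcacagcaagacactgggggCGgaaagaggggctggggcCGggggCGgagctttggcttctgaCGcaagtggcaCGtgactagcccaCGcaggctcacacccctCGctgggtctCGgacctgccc
Arxes2: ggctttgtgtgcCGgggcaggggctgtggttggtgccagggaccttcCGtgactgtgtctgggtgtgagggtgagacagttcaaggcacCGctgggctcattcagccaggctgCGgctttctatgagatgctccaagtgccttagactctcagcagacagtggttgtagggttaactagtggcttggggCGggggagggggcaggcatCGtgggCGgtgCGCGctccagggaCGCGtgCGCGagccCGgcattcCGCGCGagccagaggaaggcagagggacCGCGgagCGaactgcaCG
The windows of Bex4 and Bex1 share an unbroken identical stretch of 271 bases, from base 24 to 294 of the first and from base 30 to 300 of the second, which runs on into the first transcribed bases. The window of Arxes1, at chrX:136033117-136033416, is identical to that of Arxes2 over all 300 bases. Against the other 22 genes of the list that have a promoter in the table, the longest stretch shared with Bex4 was 11 bases. The windows hold 9, 8 and 21 CG dinucleotides for Bex4, Bex1 and Arxes2, where the median over all 32851 promoters of the table is 7 and 94.6% hold at least 1. Because such copies share sequence, reads may have been divided between Bex1 and Bex4 and between Arxes1 and Arxes2, and the value of each copy is uncertain.

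Bex4 ranged from 223 to 607 TPM (median 471) in 8C and from 0 to 1.14 TPM (median 0.248) in ENR, a log2 fold change of 8.43 (SE 0.21, adjusted p = 4.51e-08). Bex1 stood at 119 to 311 TPM (median 195) in 8C and 1.05 to 6.69 TPM (median 1.83) in ENR (5.96, SE 0.33, adjusted p = 1.06e-06). For both genes the lowest 8C library was far above the highest ENR library. Arxes2 and Arxes1, copies of a gene for a subunit of the signal peptidase that is expressed in fat cells, were at or near 0 in every ENR library. Arxes2 reached 43.4 to 74.3 TPM (median 64.7) in 8C (5.91, SE 0.12, adjusted p = 1.35e-08), and Arxes1 reached 18.8 to 38.2 TPM (median 29.4) (4.87, SE 0.14, adjusted p = 6.19e-08). Of 26 genes listed with them (Bex, Arxes, Tceal, Armcx, Gprasp, Maged and Itm2a, all on chromosome X but Bex6), 20 were tested, 16 were called higher and 0 lower, with a median log2 fold change of 3.18 against 0.078 for all genes. Of the 20 tested, 11 passed the minimum only through 8C, and of the other 9, 5 were called higher. Bex2 was already present in ENR, at 6.43 to 14.7 TPM (median 7.66), and rose to 112 TPM (48 to 157) in 8C (3.29, SE 0.23, adjusted p = 4.21e-06). Itm2a, a membrane protein of cartilage and muscle, ranged from 43 to 152 TPM (median 74.1) in 8C against 0 to 0.659 TPM (median 0.121) in ENR (6.10, SE 0.18, adjusted p = 6.19e-08), and Tceal8, of a family of proteins like a transcription elongation factor, from 33.4 to 80.7 TPM (median 50.3) against 0.0809 to 1.99 TPM (median 0.463) (5.15, SE 0.23, adjusted p = 3.22e-07). Across chromosome X as a whole, 83 of 389 genes tested were called higher, or 21.3%, while on the numbered chromosomes the share lay between 9.74% and 14.8%. Without the members of the list, the share on chromosome X was 18.2%, or 67 of 369. Of the sex-linked genes, Xist, which is transcribed from the inactive X, was not called (-0.33, SE 0.29, adjusted p = 0.413, first set -1.05, second set 0.25), nor was Ddx3y of chromosome Y (0.027, SE 0.12, adjusted p = 0.881).

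The other large rises came from genes of many kinds. Ldhb, the subunit of lactate dehydrogenase typical of heart, ranged from 44.6 to 229 TPM (median 160.3) in 8C and from 0.16 to 2.82 TPM (median 0.378) in ENR (6.35, SE 0.31, adjusted p = 5.61e-07). Its partner Ldha, the main subunit in muscle, was near 2316 TPM in ENR and 2295 TPM in 8C (medians) and was not called. Wfdc2, a secreted protein with whey acidic protein domains, varied more among the 8C libraries, from 11.2 to 263 TPM (median 89.7), and stayed at 0 to 2.49 TPM (median 0.182) in ENR (5.79, SE 0.34, adjusted p = 1.54e-06). Gpc3, a cell surface proteoglycan of growing embryonic tissues, reached 93.5 to 221 TPM (median 201) against 0.632 to 5.3 TPM (median 3.82) (5.42, SE 0.15, adjusted p = 4.83e-08). Hspb1, a small heat shock protein, was at 21 to 96.5 TPM (median 56.7) against 0 to 0.922 TPM (median 0.243) (5.34, SE 0.23, adjusted p = 2.81e-07). The conditions did not overlap in Ldhb, Wfdc2, Gpc3 or Hspb1. Crip2, a LIM domain protein of the vessel wall and heart, completed this group at 29.4 to 91.2 TPM (median 65.4) against 0.79 to 1.43 TPM (median 0.848) (4.86, SE 0.20, adjusted p = 2.43e-07).

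Markers of revival and fetal-like stem cells were higher in 8C as a group. Of 26 tested, 17 were called higher and 0 lower, and the median log2 fold change was 1.79. Among the 21 with an ENR mean of at least 1 TPM, 12 were called higher, and 5 of the 31 listed were not tested. Ly6a, whose product is the surface antigen SCA1, ranged from 61 to 853 TPM (median 403) in 8C and from 2.46 to 16.5 TPM (median 8.59) in ENR (5.02, SE 0.24, adjusted p = 4.87e-07), with no overlap. Anxa1, a phospholipid-binding protein released in inflammation, was at 27.1 to 152 TPM (median 69.8) in 8C and at 0.636 to 27.6 TPM (median 1.32) in ENR (4.01, SE 0.27, adjusted p = 3.06e-06). Clu, which encodes the secreted chaperone clusterin, stood at 30.8 to 129.8 TPM (median 70.4) in 8C and at 0.80 to 40.6 TPM (median 5.52) in ENR (3.65, SE 0.66, adjusted p = 0.00173). The overlap in Clu and Anxa1 came from the ENR library numbered 7 alone, which passed the lowest 8C library in each. Without replicate number 7 the log2 fold change of Clu was 4.32 and that of Anxa1 4.30. Within numbers 1 to 3 Clu rose by 5.48 and within numbers 4 to 6 by 3.16. Among the annexins, Anxa5 ranged from 129 to 285 TPM (median 191) against 14.9 to 58.7 TPM (median 20.2) (2.99, SE 0.18, adjusted p = 1.65e-06) and Anxa6 from 71.9 to 122 TPM (median 91.7) against 5.87 to 9.75 TPM (median 7.86) (3.44, SE 0.095, adjusted p = 4.83e-08). Gja1, the gap junction protein connexin 43, was near 0 in ENR, at 0 to 0.112 TPM (median 0.0606), and at 6.04 to 14.9 TPM (median 11.3) in 8C (3.44, SE 0.17, adjusted p = 5.09e-07). Krt19, a keratin of the list that normal crypts express strongly, did not pass the test (-0.077, SE 0.15, adjusted p = 0.72).

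**Figure D1:**
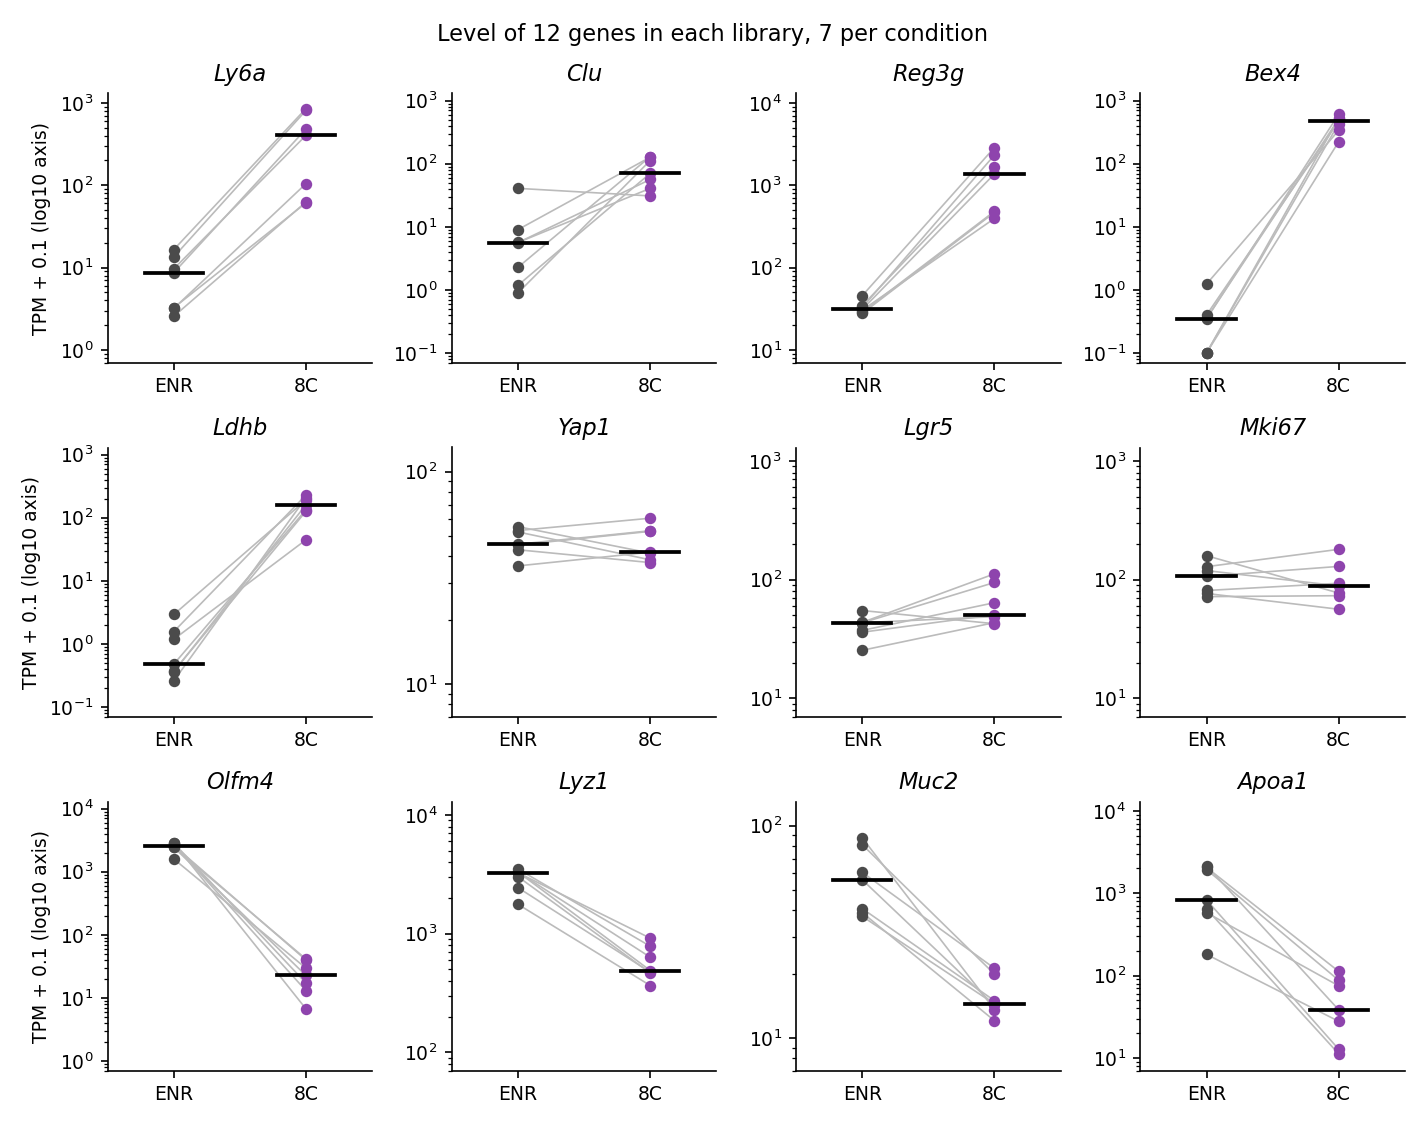
Level of 12 genes in each library, as TPM on a log10 axis after adding 0.1 TPM, for ENR (left) and 8C (right) in each panel. A line joins libraries of the same replicate number, and the bar is the median of 7. Ly6a, Reg3g, Ldhb and Bex4 lie higher in every 8C library, Olfm4, Lyz1, Muc2 and Apoa1 lower, and Lgr5, Mki67 and Yap1 overlap.

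YAP target genes were also higher as a group, while Yap1 itself was not. Of 27 target genes listed, 25 were found by symbol and 21 were tested. Of the 21 tested, 11 were called higher and 0 lower, with a median of 1.19, and of the 15 with an ENR mean of at least 1 TPM, 6 were called higher. Il33, Anxa1, Anxa6 and Tgfb2 are also in the revival and fetal-like list above, so the lists are not separate. Yap1 ranged from 37.2 to 60.2 TPM (median 41.6) in 8C and from 35.9 to 54.9 TPM (median 45.4) in ENR (-0.031, SE 0.11, adjusted p = 0.859). Tead2, a DNA-binding partner of YAP, rose from 7.39 TPM (5.8 to 11.8) in ENR to 38 TPM (25.8 to 66) in 8C (2.21, SE 0.26, adjusted p = 0.000121), without overlap. Amotl1, which binds YAP at cell junctions, was close to 0 in ENR, at 0.0393 to 0.282 TPM (median 0.157), and at 8.43 to 30.3 TPM (median 13) in 8C (3.71, SE 0.24, adjusted p = 2.32e-06). Fstl1, a secreted glycoprotein, followed with 5.19 to 16.5 TPM (median 9.67) against 0.129 to 1.5 TPM (median 0.759) (2.66, SE 0.29, adjusted p = 7.61e-05), and Il33, an alarmin cytokine, with 1.26 to 16.4 TPM (median 5.76) against 0.144 to 0.869 TPM (median 0.398) (1.88, SE 0.29, adjusted p = 0.00061). Amotl2, one of the defining targets, was not called (-0.28, SE 0.19, adjusted p = 0.277), and Ankrd1, another, stayed at a median of 0 in both conditions. Areg, a ligand of the EGF receptor, split by replicate number: its log2 fold change came to -0.0067 for numbers 1 to 3 and 2.51 for numbers 4 to 6, and over all 7 it was not called (1.17, SE 0.42, adjusted p = 0.0522). In 8C it ranged from 48.9 to 705 TPM (median 400.1).

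The study's own list of genes raised in epithelium repairing injury, taken from its supplement, held 57 genes tested. The list was built from published injury datasets and not from these libraries, but it holds Ly6a and Reg3b, which were markers of the screen for 8C. Among the genes tested, 17 were called higher and 2 lower, with a median of 0.66, and with quantile normalization 14 and 6. Of the members with an ENR mean of at least 1 TPM, 13 of the 51 were called higher. Beside Ly6a, Reg3b and Reg3g, the called members included Icam1, the adhesion molecule for leukocytes, at 7.43 to 17.5 TPM (median 10.4) against 0.19 to 1.12 TPM (median 0.436) (2.98, SE 0.11, adjusted p = 1.62e-07), and Lrg1, a leucine-rich glycoprotein of the acute phase, at 1.03 to 38.5 TPM (median 28.7) against 0 to 0.426 TPM (median 0) (3.32, SE 0.62, adjusted p = 0.00214). Duox2 and Duoxa2, the oxidase that makes hydrogen peroxide at the gut surface and its maturation factor, were the members called lower (-1.65, SE 0.21, adjusted p = 0.000209, and -1.18, SE 0.20, adjusted p = 0.00117). Within replicate numbers 1 to 3, 12 members were called higher and 9 lower, and within numbers 4 to 6, 24 and 1. The companion list of genes lowered in repairing epithelium held 52 tested, of which 24 were called lower and 1 higher (median -0.94). Ces1f, a carboxylesterase, led it, at 1.41 to 35 TPM (median 4.46) in 8C and 92.7 to 243 TPM (median 182) in ENR (-4.48, SE 0.56, adjusted p = 0.000176, first set -6.29, second set -3.37), and Aoc1, which breaks down histamine and other diamines, followed at 3.32 to 22.7 TPM (median 8.94) against 122 to 372 TPM (median 142) (-4.18, SE 0.48, adjusted p = 9.45e-05, first set -5.77, second set -3.12).

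The Reg lectins moved in opposite directions, and Reg3b was a marker of the screen for 8C. Reg3g ranged from 395 to 2870.4 TPM (median 1372) in 8C and from 27.7 to 45.6 TPM (median 31) in ENR (4.97, SE 0.32, adjusted p = 2.34e-06), and Reg3b from 575 to 3805 TPM (median 1749) and 30.8 to 372 TPM (median 68) (3.56, SE 0.78, adjusted p = 0.00546). The conditions did not overlap in either, but the size for Reg3b depended on the set, with 0.90 within numbers 1 to 3 and 5.09 within numbers 4 to 6. In numbers 1 to 3 the ENR libraries held 372, 284 and 346 TPM of Reg3b and the 8C libraries 664, 633 and 575 TPM. In numbers 4 to 6 the ENR libraries held 56.6, 68 and 59.3 TPM and the 8C libraries 2945, 1831 and 1749 TPM, so that ENR was lower and 8C higher than in the first set. Reg3a, another lectin of the family, fell from 461 TPM (33 to 793) in ENR to 10.6 TPM (3.87 to 26.9) in 8C (-5.11, SE 0.76, adjusted p = 0.000521, first set -7.17, second set -4.65), and Reg1 from 831 TPM (32.6 to 1782) to 80.002 TPM (53 to 338) (-2.66, SE 0.54, adjusted p = 0.0035). Of all 10 antimicrobial genes of the list that were tested, 2 were called higher and 4 lower, and its median was -0.43.

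Genes of antigen presentation changed in part. H2-Ab1, the beta chain of an MHC class II molecule, rose from 2.78 TPM (1.73 to 3.68) in ENR to 159 TPM (70.7 to 239) in 8C (5.21, SE 0.22, adjusted p = 2.81e-07). Its alpha chain partner H2-Aa stayed at 0 to 1.61 TPM (median 0.457) in 8C and was not tested, being under the minimum. H2-DMa, which helps to load peptides onto class II, was called higher (1.95, SE 0.12, adjusted p = 1.53e-06), and Ctss, the protease that trims the invariant chain, was called lower (-1.11, SE 0.095, adjusted p = 1.54e-05). H2-Eb1 was not called (1.45, SE 0.55, adjusted p = 0.0616, first set -0.027, second set 1.84), nor was Cd74, the invariant chain (1.23, SE 0.55, adjusted p = 0.105). In 8C library 7 Cd74 reached 66.1 TPM and H2-Eb1 37.9 TPM, each the highest of its 7. Among 16 class I genes tested, 3 were called higher and 0 lower, the former being Psmb8, a subunit of the immunoproteasome (2.26, SE 0.13, adjusted p = 1.06e-06), H2-Q7 (2.04, SE 0.15, adjusted p = 5.16e-06) and H2-M3 (1.86, SE 0.10, adjusted p = 9.29e-07). H2-K1, H2-D1 and Tap1 stayed under 2-fold (0.46, 0.62 and 0.99). Interferon-stimulated genes were called higher for 3 of 24, led by Bst2, tetherin, which holds virus particles at the cell surface (2.695, SE 0.17, adjusted p = 1.86e-06). The share called higher, 12.5%, was near the background of 12%, and with quantile normalization 2 were called higher. Of the 21 with an ENR mean of at least 1 TPM, 3 were called higher. In numbers 4 to 6 alone, 11 of 27 tested were called higher and in numbers 1 to 3, 4 of 21.

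The crypt base stem cell list did not move one way. Of its 20 genes, all tested, 3 were called higher and 3 lower (median 0.30). Olfm4, a secreted glycoprotein of crypt base cells and a Notch target, fell from 2599 TPM (1591 to 2856) in ENR to 22.5 TPM (6.57 to 41.1) in 8C (-6.82, SE 0.33, adjusted p = 4.83e-07), the second largest fall among the named genes. Lgr5, the receptor for R-spondin that defines these cells, ranged from 42.4 to 112 TPM (median 50.6) in 8C and from 25.3 to 54.8 TPM (median 43.2) in ENR, and its change stayed under 2-fold (0.61, SE 0.19, adjusted p = 0.0281). Ascl2, the transcription factor of the stem cell state, was not called (-0.23, SE 0.13, adjusted p = 0.184), and Smoc2, a matrix protein, stayed under 2-fold (0.77, SE 0.18, adjusted p = 0.00825). Cd44, the hyaluronan receptor, was called higher just past the 2-fold limit, at 45.6 to 75.8 TPM (median 59) against 21.8 to 39.2 TPM (median 27.9) (1.06, SE 0.14, adjusted p = 0.00028). Tnfrsf19, a Wnt target that marks stem cells, showed the largest rise of the list, from 1.76 TPM (0.535 to 2.75) to 28 TPM (17.9 to 47.8) (3.53, SE 0.29, adjusted p = 1.25e-05). Of 35 genes of cycling cells none was called, and their log2 fold changes lay between -0.69 and 0.20. Mki67, the marker of dividing cells, ranged from 56.2 to 180.0 TPM (median 88.5) in 8C and from 71.8 to 159 TPM (median 107) in ENR (-0.13, SE 0.17, adjusted p = 0.593).

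The pathways that the media act on were read through their target genes. Of 15 Wnt target and feedback genes tested, 7 were called higher and 0 lower (median 0.85), and 6 of the 14 with an ENR mean of at least 1 TPM were called higher. Axin2, the common feedback inhibitor of Wnt signalling, did not differ past the threshold (-0.11, SE 0.17, adjusted p = 0.657). Nkd1, another inhibitor, rose from 1.68 TPM (0.871 to 2.26) to 11.3 TPM (5.15 to 14.1) (2.10, SE 0.19, adjusted p = 2.00e-05), and Wif1, which binds Wnt ligands outside the cell, from 0.103 TPM (0 to 0.598) to 4.21 TPM (1.87 to 5.35) (2.08, SE 0.18, adjusted p = 1.62e-05). Rnf43, the ubiquitin ligase that removes Wnt receptors, was called higher at 1.04 (SE 0.15, adjusted p = 0.00042), and Sp5, a Wnt-driven transcription factor, at 1.33 (SE 0.15, adjusted p = 9.84e-05). Of 13 BMP target genes tested, 3 were called higher and 1 lower, and 1 of the 9 with an ENR mean of at least 1 TPM was called higher. Id1, an inhibitor of differentiation factors, was called lower (-1.12, SE 0.28, adjusted p = 0.00964), whereas Id2 and Id3 were not called (-0.22, first set 0.43, second set -0.70, and -0.45, first set 0.24, second set -0.77) and the ligand Bmp4, listed at 0 in all 7 ENR libraries, reached 3.14 to 7.75 TPM (median 4.37) in 8C (adjusted p = 3.54e-06). Msx1, a homeobox target of BMP, was called higher too (2.14, SE 0.26, adjusted p = 0.000133). In the Notch pathway the receptor Notch3 was called higher (2.49, SE 0.25, adjusted p = 4.65e-05) and the ligand Dll1 and the secretory factor Atoh1 lower (-1.03, SE 0.12, adjusted p = 0.000139, and -1.27, SE 0.14, adjusted p = 8.71e-05). Hes1, the main Notch target, was not called (-0.32, SE 0.17, adjusted p = 0.167). Of 31 genes of EGF signalling and ERK feedback, 4 were called higher, among them Etv4, a transcription factor induced by ERK (1.20, SE 0.12, adjusted p = 5.35e-05), and 1 lower, namely Lrig3 (-1.17, SE 0.14, adjusted p = 0.000103). The share called higher, 12.9%, was near the background, and 2 of the 28 with an ENR mean of at least 1 TPM were called higher.

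**Figure D2:**
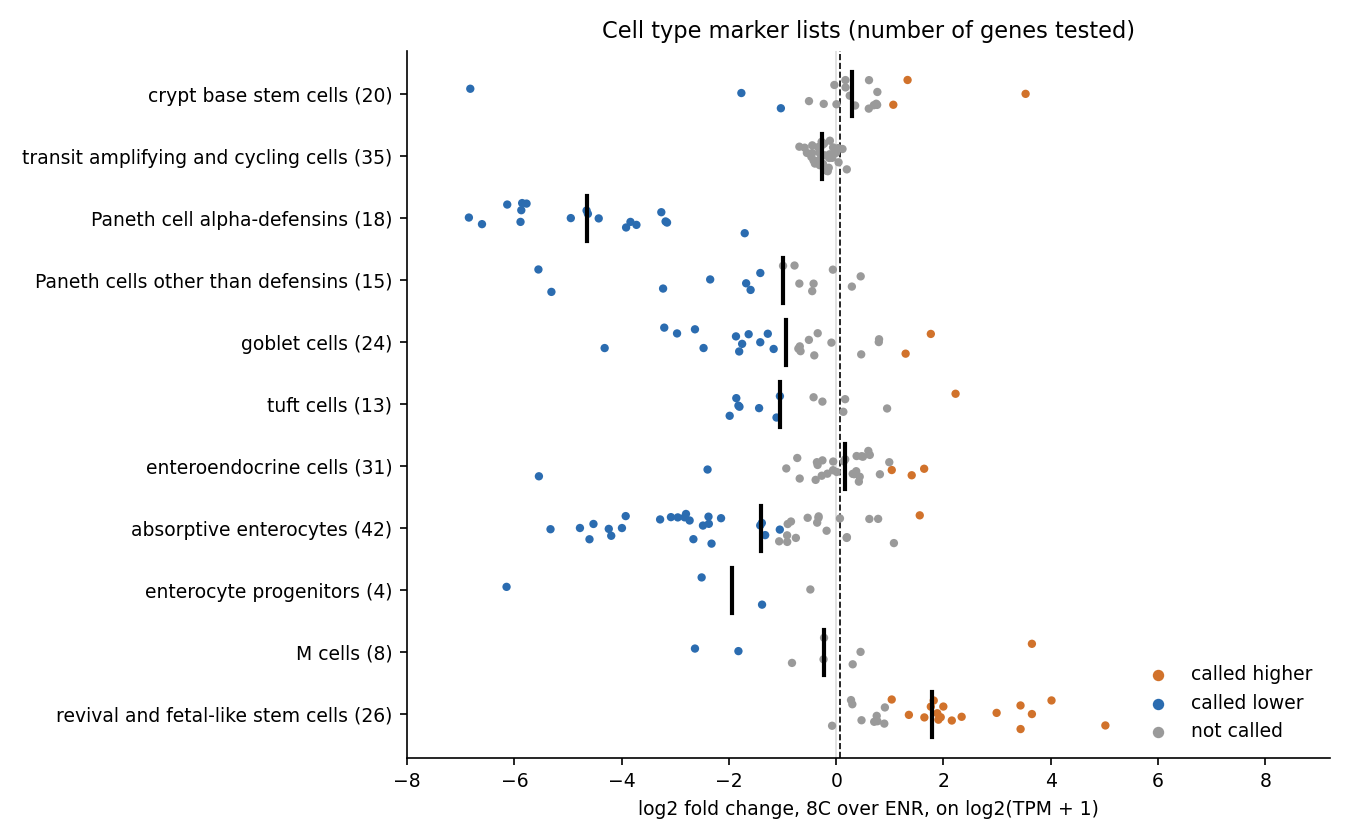
Log2 fold change of 8C over ENR for each gene tested in the 11 epithelial cell type lists. Each point is a gene, orange where called higher, blue where called lower and grey where not called, the black bar is the median of the list and the dashed line the median of all genes tested (0.078). All alpha-defensins that were tested lie below 0, and most revival and fetal-like markers lie above it.

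Paneth cell defensins fell in 8C, and other secretory lists were called lower in part. Of 30 alpha-defensins listed, 18 were tested and 18 called lower, with a median log2 fold change of -4.64. Of these, 4 passed the minimum only through ENR, and 14 of the 14 with an 8C mean of at least 1 TPM were called lower. The family is a cluster of near-identical genes on chromosome 8 whose reads may be divided between copies, so that the sum is the safer value, and it fell from 9940.4 to 13724 TPM in ENR (median 12277) to between 163 and 1929.9 TPM in 8C (median 891). Defa24, the most abundant of those named, was still at 148 to 1294 TPM (median 618) in 8C, against 4093 to 6536 TPM (median 5066) in ENR (-3.18, SE 0.36, adjusted p = 8.99e-05). Defa21, with the largest fall of all named genes, was at 0 to 10.3 TPM (median 6.57) against 476 to 754 TPM (median 686) (-6.85, SE 0.34, adjusted p = 5.61e-07). Of 15 other Paneth genes 7 were called lower and 0 higher. Lyz1, Paneth cell lysozyme, fell from 3258 TPM (1765 to 3500.5) to 489 TPM (365 to 916) (-2.35, SE 0.11, adjusted p = 4.88e-07), and Itln1, an intelectin, from 3059 TPM (2688 to 3849) to 915 TPM (401 to 1715) (-1.68, SE 0.23, adjusted p = 0.000316). Mmp7, the protease that activates defensins, was not called (-0.45, SE 0.23, adjusted p = 0.159), and Ang4, an antimicrobial ribonuclease, stayed just short of 2-fold (-0.99, SE 0.20, adjusted p = 0.00384).

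Goblet cell genes were called lower for 12 and higher for 2 of 24 (median -0.94). Muc2, the gel-forming mucin, ranged from 11.9 to 21.2 TPM (median 14.3) in 8C and from 37.2 to 87.4 TPM (median 55.5) in ENR (-1.75, SE 0.16, adjusted p = 1.93e-05). Zg16, a lectin that binds Gram-positive bacteria, fell most, to 6.41 TPM (1.02 to 30.8) from 165 TPM (105 to 239) (-4.32, SE 0.38, adjusted p = 1.80e-05), and Klk1, a kallikrein protease, to 23.7 TPM (16.3 to 44.2) from 240.0 TPM (194 to 294) (-3.21, SE 0.22, adjusted p = 3.75e-06). Agr2, which folds mucins in the endoplasmic reticulum, had the opposite sign and stayed under 2-fold (0.47, SE 0.092, adjusted p = 0.00297), and Tff3, the trefoil peptide, was not called (-0.68, SE 0.19, adjusted p = 0.0195). Tuft cell genes were called lower for 7 of 13, among them Rgs13, a regulator of G protein signalling (-1.99, SE 0.23, adjusted p = 0.000111), and the cation channel Trpm5 (-1.11, SE 0.17, adjusted p = 0.000539), while Pou2f3, the transcription factor that defines the lineage, was not (0.13, SE 0.15, adjusted p = 0.522). Of the tuft cell genes with an 8C mean of at least 1 TPM, 2 of the 8 were called lower. Tuba1a, a tubulin of the same list that is not particular to tuft cells, was called higher (2.23, SE 0.20, adjusted p = 2.27e-05).

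Enteroendocrine genes divided by hormone and by set. Over all 7 numbers 3 of 31 were called higher and 2 lower, and the median was 0.17. Neurog3, the factor that commits cells to the lineage, rose from 17.7 TPM (9.82 to 28.3) to 54.6 TPM (18.6 to 94.8) (1.41, SE 0.18, adjusted p = 0.000176). Ghrl, the hormone ghrelin, rose from 52 TPM (23.2 to 74.6) to 139 TPM (107 to 266) (1.64, SE 0.31, adjusted p = 0.00213), and Tac1, substance P, from 23.6 TPM (18.5 to 29.8) to 49.9 TPM (35.3 to 83.6) (1.04, SE 0.15, adjusted p = 0.000503). Gcg, the precursor of GLP-1, nearly disappeared, from 76.5 TPM (37.3 to 104) in ENR to 0.123 TPM (0 to 1.35) in 8C (-5.54, SE 0.25, adjusted p = 3.51e-07), and Gip, the other incretin, fell from 336 TPM (236 to 710.4) to 74.2 TPM (34.6 to 407) (-2.40, SE 0.52, adjusted p = 0.00508, first set -0.88, second set -3.78). The general markers Chga and Chgb, proteins of secretory granules, were not called (0.14 and 0.33), and their sign turned between the sets (for Chga first set 1.06, second set -0.41, for Chgb first set 0.86, second set -0.20). Within numbers 1 to 3, 12 genes of the list were called higher and 1 lower, and within numbers 4 to 6, 1 and 6.

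Absorptive enterocyte genes were lower in 8C for the most part. Of 42 tested, 24 were called lower and 1 higher, with a median of -1.40, and 21 of the 39 with an 8C mean of at least 1 TPM were called lower. In the first set 32 were called lower and 1 higher (median -2.93), and in the second 18 and 4 (median -0.76). Apoa1, an apolipoprotein of chylomicrons, fell from 829 TPM (181 to 2155) to 38.3 TPM (11.1 to 112) (-4.52, SE 0.42, adjusted p = 2.37e-05). Sis, sucrase-isomaltase of the brush border, fell from 362 TPM (266 to 1329) to 10.4 TPM (5.38 to 218) (-4.78, SE 0.77, adjusted p = 0.000906, first set -7.08, second set -3.82), and Slc6a19, the main transporter of neutral amino acids, from 39.2 TPM (24.5 to 108) to 0.201 TPM (0.0855 to 1.36) (-5.33, SE 0.20, adjusted p = 1.62e-07). None of these overlapped between the conditions. Alpi, intestinal alkaline phosphatase, passed the threshold narrowly (-1.05, SE 0.36, adjusted p = 0.0419), with -1.995 within numbers 1 to 3 and -0.20 within numbers 4 to 6. Fabp1, a fatty acid carrier, was not called (-0.91, SE 0.33, adjusted p = 0.0527), nor was Krt20, a keratin of mature cells (-0.90, SE 0.54, adjusted p = 0.221, first set -2.71, second set 0.43). Of 4 markers of enterocyte progenitors, 3 were called lower and none higher. Of 36 transcription factors of intestinal identity, 4 were called lower and none higher. These were Isx, which represses the uptake of carotenoids (-2.82, SE 0.74, adjusted p = 0.014, with -5.34 within numbers 1 to 3 and -1.34 within numbers 4 to 6), Creb3l3 (-1.97, SE 0.38, adjusted p = 0.00266), Hnf4g (-1.72, SE 0.38, adjusted p = 0.00583) and Ppara (-1.13, SE 0.38, adjusted p = 0.039), and the last 2 stayed under 2-fold within numbers 4 to 6 (-0.88 and -0.22). Cdx2, which specifies the intestine, ranged from 324 to 616 TPM (median 441) in 8C and from 191 to 531 TPM (median 369) in ENR (0.45, SE 0.10, adjusted p = 0.00667), and Hnf4a stayed under 2-fold (-0.50, SE 0.14, adjusted p = 0.0197).

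Enzymes that clear foreign compounds were called lower in part. Of 53 tested, 30 were called lower and 3 higher (median -1.53). In the first set 38 were called lower and 1 higher (median -2.42), and in the second 22 and 6 (median -0.74). Many of these belong to families whose members share sequence, and the division of reads between them is uncertain. Cyp3a11 and Cyp2b10, cytochrome P450 enzymes induced by drugs, fell from 77.4 TPM (6.57 to 241) to 3.77 TPM (1.19 to 9.73) (-4.24, SE 0.38, adjusted p = 2.05e-05) and from 409.7 TPM (54 to 528) to 17.9 TPM (6.41 to 46.8) (-3.92, SE 0.45, adjusted p = 9.48e-05). Cyp1a1, the enzyme induced through the aryl hydrocarbon receptor, went the other way, from 1.21 TPM (0.61 to 13.4) to 63.6 TPM (16.1 to 88.9) (3.62, SE 0.54, adjusted p = 0.000544), more within numbers 1 to 3 (5.41) than within numbers 4 to 6 (1.90). In the related family of UDP-glucuronosyltransferases, 4 of 10 were called lower and 1 higher, with Ugt1a9 at 0 to 1.14 TPM (median 0.195) in 8C against 4.14 to 58 TPM (median 19.8) in ENR (-4.29, SE 0.40, adjusted p = 2.59e-05). Genes of glutathione and the NRF2 response were called lower for 10 of 35 and higher for 1, the latter being Gpx8, a peroxidase of the endoplasmic reticulum, at 13 to 52.1 TPM (median 48.2) against 0 to 1.67 TPM (median 0.198) (4.79, SE 0.26, adjusted p = 9.01e-07). Nqo1, a standard NRF2 target, was called lower (-1.23, SE 0.23, adjusted p = 0.00224).

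**Figure D3:**
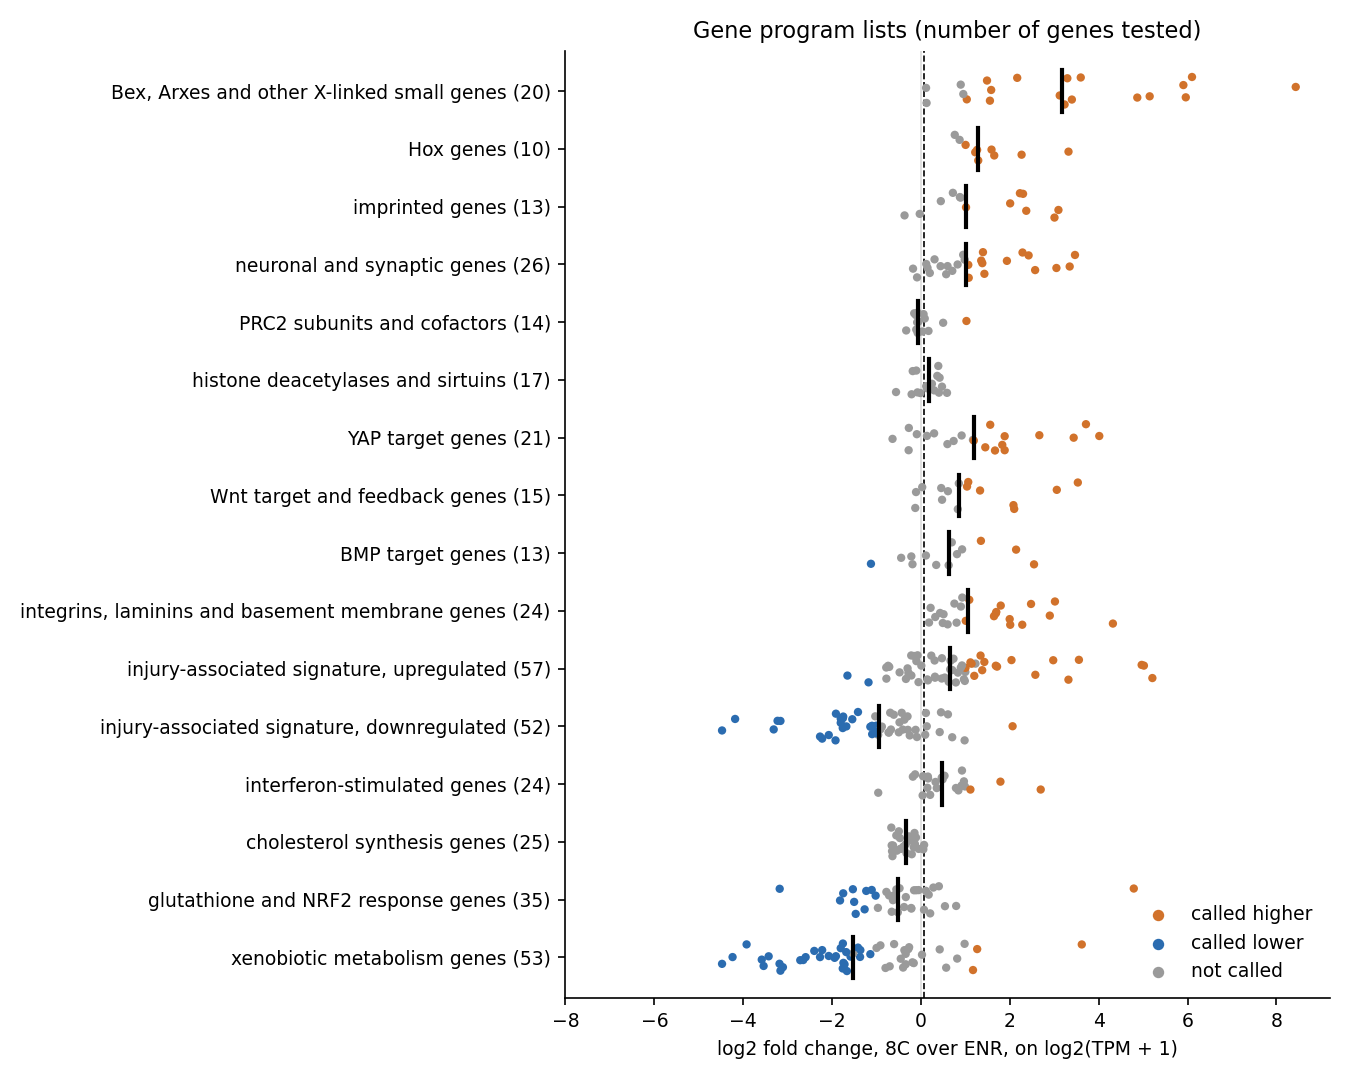
Log2 fold change of 8C over ENR for each gene tested in 16 lists of gene programs, drawn as in the plot of cell type lists. Each point is a gene, orange where called higher, blue where called lower, grey where not called, with the list median as a black bar and the median of all genes as a dashed line. The X-linked, Hox, neuronal and basement membrane lists lie to the right, and xenobiotic genes to the left.

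Of 29 glycolysis and lactate genes, 6 were called higher, among them the hexokinase Hk1 (2.08, SE 0.22, adjusted p = 6.71e-05), and 1 lower. That is 20.7% higher, against 12% of all genes, with 3 called higher in the first set and 9 in the second. Of the 28 with an ENR mean of at least 1 TPM, 5 were called higher. Of 31 genes of fatty acid oxidation and ketone synthesis, 3 were called higher and 3 lower (first set 3 and 6, second set 6 and 1). Pdk4, which restrains the entry of pyruvate into the citric acid cycle, was called higher (2.29, SE 0.25, adjusted p = 8.09e-05), and Cd36, a fatty acid transporter, lower (-2.87, SE 0.48, adjusted p = 0.00107, first set -4.32, second set -1.99). None of 25 cholesterol synthesis genes was called, although their median was -0.34. Cytosolic ribosomal proteins (76 tested) and nuclear subunits of complex I (36 tested) gave no call, with medians of 0.11 and 0.085.

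Genes of cell adhesion and the basement membrane were called higher for 13 of 24 and lower for none, with a median of 1.05. Among the 18 with an ENR mean of at least 1 TPM, 7 were called higher. Nid1, nidogen, which links laminin to collagen, rose from 0.411 TPM (0.108 to 0.57) to 28 TPM (5.3 to 65.2) (4.32, SE 0.37, adjusted p = 1.43e-05). Col18a1, a basement membrane collagen, rose from 0.768 TPM (0.452 to 1.17) to 11.2 TPM (4.68 to 48) (3.02, SE 0.36, adjusted p = 0.000121, first set 1.996, second set 4.18), and Lama5, the laminin chain of intestinal epithelium, from 2.52 TPM (2.22 to 11.8) to 24 TPM (13.9 to 32.3) (2.48, SE 0.22, adjusted p = 2.19e-05). The integrins of hemidesmosomes, Itga6 and Itgb4, were not called (0.32, and 0.18, first set -0.36, second set 0.83). The summed mesenchymal list given above moved with these genes, with Vim called higher and Col1a1 at a mean of 1.02 TPM in 8C against 0.0361 TPM in ENR, Des at 1.49 against 0.0231 TPM and Col3a1 at 0.0147 against 0.00783 TPM. Among junction genes, Cldn2, the claudin of leaky crypt junctions (1.07, SE 0.10, adjusted p = 2.93e-05), and Cldn4 (1.49, SE 0.22, adjusted p = 0.000437) were called higher and the connexin Gjb1 lower (-1.09, SE 0.15, adjusted p = 0.00031).

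EPZ6438 and VPA inhibit EZH2 of PRC2 and histone deacetylases, and genes of these, listed together with sirtuins, changed little in RNA level. Of 14 PRC2 subunits and cofactors only Epop, a cofactor that links PRC2 to elongin, was called (1.02, SE 0.13, adjusted p = 0.000179). Ezh2 itself ranged from 25.4 to 59.7 TPM (median 35.4) in 8C and from 36.4 to 51.8 TPM (median 42.1) in ENR (-0.11, SE 0.12, adjusted p = 0.499). None of 17 histone deacetylases and sirtuins was called, the largest rise being 0.59. Some lists of genes that are weak in adult gut were also examined, of which many members were not tested. Cdkn2a, the locus of the cell cycle inhibitors p16 and p19Arf and a textbook target of PRC2, rose from 0.531 TPM (0.214 to 0.736) to 97.3 TPM (7.74 to 125) (4.83, SE 0.53, adjusted p = 7.40e-05, first set 4.16, second set 6.26). Its 8C libraries were at 12.5, 97.3, 16.1, 108, 125, 105 and 7.74 TPM for numbers 1 to 7, so that numbers 2, 4, 5 and 6 lay well above the others. Hox genes, which set position along the body axis, were called higher for 8 of 10 tested, led by Hoxa5 at 7.22 to 20.1 TPM (median 12.6) against 0.113 to 0.604 TPM (median 0.421) (3.32, SE 0.17, adjusted p = 6.49e-07). Of these 10, 7 passed the minimum only through 8C, 25 of 35 listed Hox genes were not tested, and with quantile normalization 5 were called higher. Imprinted genes were called higher for 7 of 13 tested, and 7 of the 13 passed the minimum only through 8C, which hold 6 of the calls. Of the other 6, 1 was called higher. Among the members weak in ENR were Sgce, a sarcoglycan expressed from the paternal copy, at 5.41 to 10.008 TPM (median 7.47) against 0 to 0.0298 TPM (median 0) (3.09, SE 0.15, adjusted p = 4.83e-07), and the maternal RNA H19 at 2.05 to 22.5 TPM (median 8.96) against 0 to 0.515 TPM (median 0) (3.01, SE 0.39, adjusted p = 0.000216), while Igf2 stayed under the minimum. Neuronal and synaptic genes were called higher for 13 of 26 (8 with quantile normalization), and for 5 of the 17 with an ENR mean of at least 1 TPM, led by Dpysl3, a collapsin response protein (3.47, SE 0.23, adjusted p = 2.88e-06), and Nefl, neurofilament light chain (3.05, SE 0.16, adjusted p = 8.22e-07). The summed list of enteric neurons and glia given above moved with them, but the lists share members, among them Uchl1, Snap25 and Elavl4. In it, Ret was called higher, as were Uchl1 and Snap25, which passed the minimum only through 8C. Elavl4 stood at a mean of 0.295 TPM in 8C against 0.0258 TPM in ENR, and Sox10 at 0. Of 25 p53 targets 5 were called higher, with Phlda3, a repressor of AKT, at 2.15 (SE 0.20, adjusted p = 2.38e-05), and the classical targets Cdkn1a and Mdm2 were not called (0.47, first set -0.31, second set 1.2995, and 0.04).

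Some wider families were also counted. Of 10 serpins, which inhibit proteases, 5 were called higher and 0 lower, but 51 were not tested and 3 passed the minimum only through 8C, among them Serpine2, protease nexin 1, at 2.07 to 12.1 TPM (median 4.94) against 0 to 0.212 TPM (median 0.0764) (2.56, SE 0.22, adjusted p = 1.80e-05). Guidance molecules were called higher for 5 of 20 semaphorins and plexins, with Sema3f at 8.14 to 23.8 TPM (median 13.4) against 0.569 to 1.96 TPM (median 0.772) (2.96, SE 0.28, adjusted p = 3.07e-05), and for 4 of 14 ephrins and Eph receptors, with none lower in either family. Among members with an ENR mean of at least 1 TPM these counts were 4 of the 7 serpins, 4 of the 19 semaphorins and plexins and 3 of the 13 ephrins and Eph receptors. With quantile normalization 3 serpins and 2 semaphorins and plexins were called higher. Of 223 solute carriers, 25 were called higher and 23 lower (first set 20 and 44, second set 34 and 18). Zinc finger genes with Zfp symbols, most of them transcriptional repressors, were called higher for 18 of 314 and lower for none, and with quantile normalization for 9 and 3. The shares called higher, 11.2% of solute carriers and 5.73% of Zfp genes, did not exceed the background of 12%. The share of solute carriers called lower was 10.3%, against 3.26% of all genes. Of these 23 genes, 13 passed the minimum only through ENR. Of the 210 solute carriers with an 8C mean of at least 1 TPM, 10 were called lower, where the background is 2.45%. Markers of other gut regions were called lower for 5 of 13, among them Aqp8, a water channel (-3.96, SE 0.51, adjusted p = 0.000216), and Fabp6, the bile acid carrier of the ileum (-1.81, SE 0.22, adjusted p = 0.000136). Of members with an 8C mean of at least 1 TPM, 3 of the 11 were called lower. Satb1, a chromatin organizer, was the one called higher (1.59, SE 0.15, adjusted p = 2.43e-05). Other large falls, not a full list, were those of Ctrb1, the protease precursor chymotrypsinogen B, from 111 TPM (8.39 to 204) to 0.574 TPM (0 to 3.37) (-5.57, SE 0.59, adjusted p = 5.96e-05, first set -4.67, second set -7.47), of Cfhr2, a protein related to complement factor H, from 89.5 TPM (8.8 to 217) to 0.353 TPM (0 to 0.653) (-6.14, SE 0.43, adjusted p = 4.13e-06), and of Mptx2, a mucosal pentraxin of Paneth cells, from 220.4 TPM (39.2 to 355) to 2.31 TPM (0 to 16) (-5.31, SE 0.59, adjusted p = 8.58e-05, first set -3.54, second set -6.02). In none of these 3 genes did the conditions overlap.

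Some list counts depended on the set of replicate numbers beyond those given with their list. Members called higher in the first and second set were 5 and 10 for p53 targets, 3 and 6 for MHC class I genes, 4 and 8 for EGF and ERK feedback genes, 11 and 17 for basement membrane genes and 3 and 7 for semaphorins and plexins. Members called lower were 15 and 5 for glutathione and NRF2 genes, 30 and 13 for the list lowered in repair and 6 and 2 for identity factors. The identity factors had 0 and 3 called higher.

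The levels of these genes were also read in the 8C medium without VPA and EPZ6438. That comparison shares the 8C libraries with the one above, and the medium without the compounds was not tested against ENR. Of 145 genes named here and tested, 88 were called, 61 of them higher and 27 lower in 8C, where 9.21% of all genes tested were higher and 1.71% lower. Many of the named genes were chosen for their change against ENR in the same 8C libraries, so nothing is read from that share. Bex4 without the compounds ranged from 0 to 5.12 TPM (median 1.05), and 8C was above it by 7.56 on the log2 scale (SE 0.36, adjusted p = 4.19e-07). Reg3b was at 3.17 to 70.4 TPM (median 9.05) without the compounds, and 8C was above that by 6.53 (SE 0.48, adjusted p = 5.92e-06). Cdkn2a and H2-Ab1 were likewise low without the compounds, at 0 to 1.97 TPM (median 0.774) and 0.571 to 4.59 TPM (median 0.883) (4.64, adjusted p = 4.02e-05, and 5.73, adjusted p = 9.69e-09). For Ly6a, Clu and Anxa1 the median without the compounds lay between those of 8C and ENR. Ly6a was at 43.7 to 187 TPM (median 93.9) there (1.43, SE 0.29, adjusted p = 0.00452), Clu at 7.05 to 119 TPM (median 26.8) (1.19, SE 0.34, adjusted p = 0.0234) and Anxa1 at 18.7 to 42.1 TPM (median 25) (1.11, SE 0.26, adjusted p = 0.00859). Olfm4 remained at 682 to 1713 TPM (median 1451) without the compounds (8C against it, -5.93, SE 0.25, adjusted p = 1.75e-07), and Lyz1 at 2533 to 4403 TPM (median 3669) (-2.65, SE 0.15, adjusted p = 1.01e-06). For other genes 8C was not called against the medium without the compounds. Isx was at 1.81 to 52.4 TPM (median 8.83) without them (1.28, SE 0.58, adjusted p = 0.116), Reg1 at 31.2 to 322 TPM (median 130.1) (-0.11, SE 0.23, adjusted p = 0.759), and Etv4 at 119 to 187 TPM (median 159.8) (0.16, SE 0.076, adjusted p = 0.129). Cldn2 was at 351 to 729 TPM (median 606) (0.21, SE 0.14, adjusted p = 0.284). A p that misses the threshold does not show that these levels are equal.

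**Figure D4:**
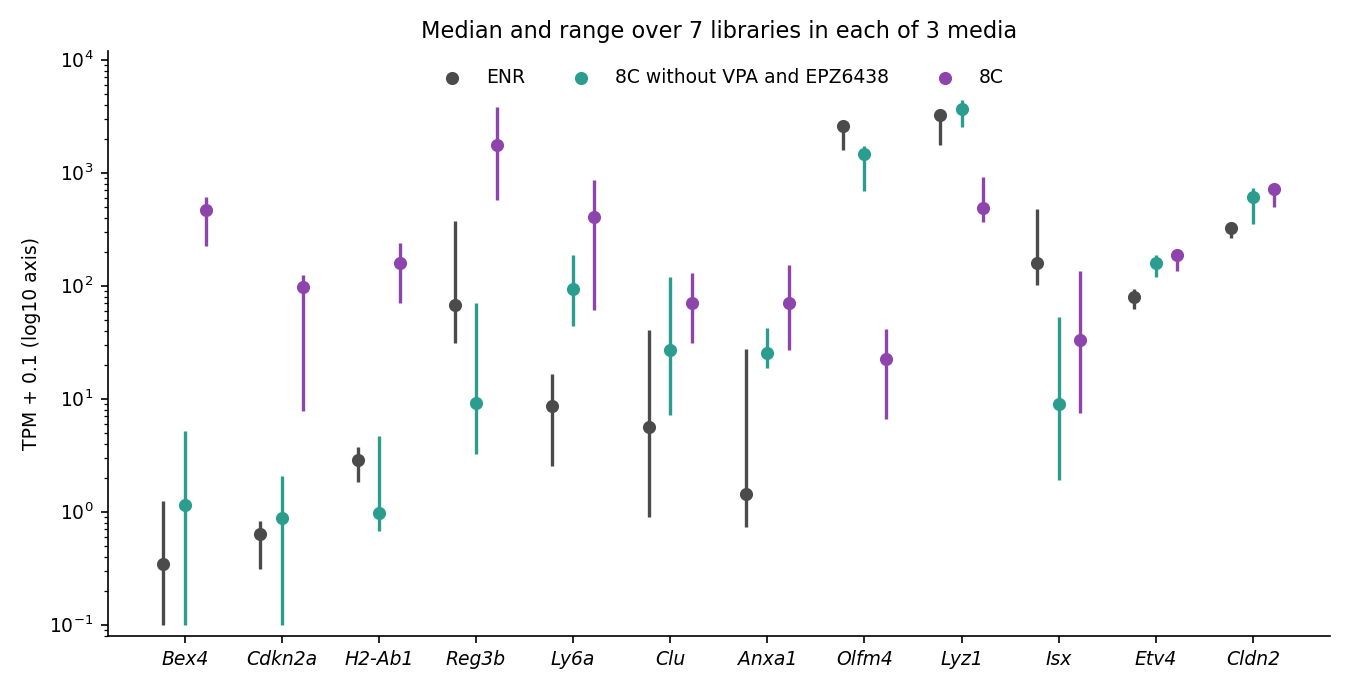
Median TPM over 7 libraries in ENR, in 8C without VPA and EPZ6438 and in 8C, on a log10 axis after adding 0.1 TPM, with bars from the lowest to the highest library, for 12 genes. Bex4, Cdkn2a and H2-Ab1 are low in both media that lack the compounds, Ly6a, Clu and Anxa1 lie between in the middle medium, and Isx is low in both 8C media.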

How the data were processed

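Bulk RNA-seq of mouse intestinal organoids was analysed, 7 libraries of the 8C condition, 7 of the ENR condition and 7 of 8C without VPA and EPZ6438. The deposited values are TPM, which the authors made from paired reads trimmed with Trimmomatic 0.39, aligned to mm10 with STAR 2.7.3a and counted with featureCounts, as the submitters' processing notes and the study's methods state; the annotation and the step from counts to TPM are not given in the sources used here. Reads per library are unknown from TPM, so depth and counting error could not be given, and the kit's strand handling is not stated. TPM summed to 983801 to 987751 per library. No pair of libraries held identical values, and the closest pair differed in 16244 genes.

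From the TPM, log2(TPM + 1) was fitted with limma 3.58.1 (R 4.3.3, eBayes with trend and robust options) over the 14 libraries compared, for genes whose mean reached 1 TPM, with the replicate number as a block; p-values were two-sided and adjusted by Benjamini-Hochberg over all genes tested. On simulated data with 200 genes changed by known amounts among 12665, the fit called 185 of the 200 and 0 others. All planted changes were above the 2-fold limit, and the other genes had no change and independent noise. No simulated effect differed between the sets of numbers, so false calls in the real libraries are not measured by it. The same fit compared 8C with 8C without VPA and EPZ6438 for the named genes. Genes were named by rule: the 15 largest rises and the 15 largest falls among called genes without overlap between the conditions, predicted genes left out, the first 4 genes of each list and up to 4 further called members with the largest change, the genes the study names for its organoids, and sex-linked genes that check the libraries. A few genes that the rule names are not reported here. The members, gene lists and tests were chosen with earlier results of these data known. Gene positions came from GENCODE M21 and promoter sequences from RefSeq (GRCm38.p6). A comparison of promoter CG content over called genes was void, because 78.5% of tested genes had a promoter in the table, below the 80% needed. Alternatives were no replicate block, another pseudocount, quantile and 75th percentile scaling, removal of mitochondrially encoded genes, other minimum means and fold limits, eBayes without those options, all organoid conditions in one fit, replicate numbers 1 to 3 or 4 to 6 alone, and leaving out each number.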

Additional observations from a re-analysis of the deposited data

Results flagged for a closer look

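The highest or the lowest library of a condition was set against the other 6 for each gene named in the text, on log2(TPM + 1) and where the highest library reached 1 TPM, and it was listed where its gap to the next library exceeded, as a share of the whole range, the 95% limit of Dixon's test for 7 values. Chance lists about 1 in 20 groups, and 33 of 275 were listed, 24 of them for the ENR library numbered 7.

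That library stood above the other ENR libraries in Ang4 at 811 TPM (median 419.9), Anxa5 at 58.7 TPM (median 20.2), Areg at 355 TPM (median 72.2), Axin2 at 137 TPM (median 98.9), Bex1 at 6.69 TPM (median 1.83), Dpysl3 at 1.81 TPM (median 0.367), Duox2 at 19.8 TPM (median 3.52), H2-DMa at 9.33 TPM (median 4.25), Id2 at 90.2 TPM (median 34.3), Krt19 at 2791 TPM (median 1733) and Lama5 at 11.8 TPM (median 2.52). It stood below them in Aqp8 at 0.359 TPM (median 19.6), Cfhr2 at 8.8 TPM (median 89.5), Chgb at 355 TPM (median 559), Ctrb1 at 8.39 TPM (median 111), Cyp2b10 at 54 TPM (median 409.7), Cyp3a11 at 6.57 TPM (median 77.4), Fabp1 at 762 TPM (median 2997), Gpc3 at 0.632 TPM (median 3.82), Olfm4 at 1591 TPM (median 2599), Reg1 at 32.6 TPM (median 831), Reg3a at 33 TPM (median 461), Smoc2 at 245 TPM (median 497) and Vim at 5.38 TPM (median 10.8). Fabp1, a fatty acid carrier of enterocytes, and the cytochromes Cyp2b10 and Cyp3a11 were among the genes that were low there. Number 7 also had the highest share of TPM from mitochondrially encoded genes in both conditions, at 4.69% in ENR (1.84 to 3.81% in the others) and 6.31% in 8C (1.64 to 2.58%). The part of this in the values was not tested.

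Among 8C libraries, the one numbered 7 stood above the others in Cd74 at 66.1 TPM (median 1.56) and Duox2 at 6.22 TPM (median 0.401) and below them in Arxes2 at 43.4 TPM (median 64.7), Gpx8 at 13 TPM (median 48.2), Ldhb at 44.6 TPM (median 160.3) and Mmp7 at 75.5 TPM (median 158). Bex4 was set apart in ENR library 4, at 1.14 TPM (median 0.248). Hes1 was set apart in 8C library 4, at 53.3 TPM (median 70.2). Wfdc2 was set apart in 8C library 2, at 11.2 TPM (median 89.7).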

How the results depend on the processing

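The number of genes called higher (1515) and lower (413) moved by over 1.5 times under few of the alternatives. With a minimum mean of 5 TPM 835 were called higher, among fewer genes tested. With no minimum fold change 3540 were called higher and 1371 lower, and with at least 4-fold 518 and 151. Within replicate numbers 1 to 3 alone, 683 genes were called lower, and the cause was not tested. Leaving out each number gave 1467 to 1639 genes higher and 374 to 447 lower.

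The replicate numbers are not stated to pair the cultures. The deviations of 8C and ENR libraries with the same number correlated at a mean of 0.254 across genes, against -0.0398 for other numbers, 6 of 7 correlated best with their own number, and number 2 correlated at -0.319, while all 7 pairs shared the pattern of 5 sex-linked genes above 1 TPM, with 3 such patterns among the numbers. The pairing is a hint from the data and not the design. With no replicate block, 1509 genes were called higher and 419 lower, 1915 genes were called in both fits, and of 147 named genes tested 1 changed its call, H2-Eb1, which was called higher without the block.

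None of the named genes that was called reversed its direction under any alternative run. Within numbers 1 to 3 alone, 6 of 144 named genes tested lost their call and 4 gained one. Within numbers 4 to 6 alone, 12 of 146 lost it and 5 gained one. Quantile normalization took Epop (0.98), Tac1 (0.96) and Vim (0.84) under 2-fold, and scaling to the 75th percentile took Alpi (-0.995) and Dll1 (-0.979). With no minimum mean, Alpi and Ppara missed the adjusted p threshold, among more genes tested. Calls were also gained, by Areg and Tap1 with scaling to the 75th percentile, Cd74 and Tap1 with a pseudocount of 0.1 TPM, Areg, Cd74 and H2-Eb1 with all organoid conditions in the fit, and Ang4, Areg, Fabp1, H2-Eb1 and Tap1 (5 genes) when a number was left out. Without a single number, Alpi lost its call for each number but 4, Ppara for 1, 2, 3 and 7, Epop for 2, 3 and 7, Vim for 3, 6 and 7, Rnf43 for 1, 3 and 5, Dll1 for 1 and 2, Tac1 for 2 and 3, Cd44 for 3, Cldn2 for 5, Id1 for 6 and Trpm5 for 7. As an alternative chosen after seeing the data, the list counts were repeated without number 7, and the calls that moved by over 1.5 times were Notch genes called higher (1 in place of 3), Vim and Epop. Of 145 named genes tested against 8C without VPA and EPZ6438, 88 were called, and under the alternatives run for that comparison 86 to 91.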
